A study of Rattus norvegicus with 10 samples.

Results

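The 9 genes described here are aldo-keto reductases, measured in liver RNA of 5 control rats and 5 rats given diethylnitrosamine and thioacetamide (DEN/TAA). They were taken by gene symbol: every probe whose transcript carries the symbol Akr1b1, Akr1b7, Akr1b8, Akr1b10, Akr7a2, Akr7a3, Akr1a1, Akr1c14 or Akr1d1 was read, which gave 10 probes out of 41012 on the array and 9 genes out of 13832 named. The genes were chosen from DEN/TAA against control values of these same arrays, Akr1b8 above all. Their differences between the groups are therefore given as a description and carry no test. Of the 9 genes, 8 passed the filter on dim probes, which kept probes detected well over background in 5 or more of the 10 rats, and Akr1b10 did not.

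Aldo-keto reductases are soluble enzymes that use NADPH to reduce aldehydes and ketones to alcohols. The AKR1B group reduces sugars, retinal and lipid aldehydes, the AKR7A group reduces dialdehydes such as that of aflatoxin, and AKR1C and AKR1D enzymes work on steroids and bile acid intermediates. In liver several of them are controlled by NRF2, the transcription factor of the oxidative stress response, and human AKR1B10 is known for its high level in hepatocellular carcinoma.

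All rats were male Wistar rats with an age of 23 weeks in the labels. Treated rats had 1 intraperitoneal dose of 200 mg/kg diethylnitrosamine, a DNA-alkylating liver carcinogen, when 6 weeks old. Thioacetamide, a hepatotoxin that leads to scarring, followed from 2 weeks later at 200 mg/kg, injected 2 times a week in cycles of 3 weeks with and 1 week without, for 23 weeks per the labels. A course of that length begun at that age runs past the stated age, and the labels do not resolve this. Control rats had vehicle only. The labels do not say whether a liver piece held nodules or scar. In whole liver fewer cells of a type and less RNA per cell cannot be told apart.

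Each rat had 1 one-colour array. Spots detected well over background made up 16.5% to 32.9% of control arrays and 36.1% to 46.6% of DEN/TAA arrays. Values below are log2 signals minus the array's 75th percentile over the 6232 probes detected on every array, so that 0 means a signal at that percentile. That percentile itself lay 1.48 (log2) higher on DEN/TAA arrays, so a probe with no signal above background reads lower there after scaling. Of 6849 genes tested, 39.0% were called higher and 16.3% lower (limma, adjusted p under 0.05), 55.3% in all, with a median difference of 0.32. Higher genes made up 70.5% of calls with this scaling, 31.0% with normexp background correction, 58.9% after quantile normalisation and 60.8% in the authors' table. Scaling to spike-in probes made the share 91.8%, and taking the percentile over the whole array made it 50.3%. All 7 hepatocyte markers, among them Alb and Ttr, were above background in every rat, as liver should show. Of these 7 markers 6 were called lower (1 to 6 over the 6 scalings, with 0 to 2 called higher). Markers of bile duct and progenitor cells (5 of 5; 3 to 5), stellate cells (6 of 6; 4 to 6) and macrophages (6 of 7; 4 to 7) were called higher. The summed signal of the bile duct list, on the scaled log2 scale, ranged from -2.50 to -1.96 in control and from 0.36 to 0.86 in DEN/TAA, and that of the hepatocyte list from 8.38 to 9.11 and from 7.51 to 7.84. The summed signal of the macrophage list ranged from 1.01 to 1.92 and from 3.12 to 3.59, and that of the stellate list from -1.21 to -0.76 and from 1.59 to 2.18. The stellate marker Lum was above background on no array. The part of these cell types in the values below was not tested.

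The promoters of 2 neighbouring pairs with unequal values, 1 pair per chromosome, are shown first, since each pair lies side by side among the Akr genes there: Akr1b8 with Akr1b10 on chromosome 4, and Akr7a3 with Akr7a2 on chromosome 5. RefSeq (GRCr8) held a promoter for 7 of the 9 genes. The 250 bases before the annotated start are printed 5′ to 3′ on the gene's strand, all 4 on the plus strand, and capitals mark a GC box (GGGCGG on either strand), a motif bound by SP1-family factors.
Akr1b8, chr4:63964171-63964420, plus strand: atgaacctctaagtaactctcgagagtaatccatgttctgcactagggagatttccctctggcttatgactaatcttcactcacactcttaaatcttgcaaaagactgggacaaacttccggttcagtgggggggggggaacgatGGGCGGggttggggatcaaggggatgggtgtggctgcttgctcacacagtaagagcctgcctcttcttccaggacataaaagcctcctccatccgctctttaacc
Akr1b10, chr4:64005382-64005631, plus strand: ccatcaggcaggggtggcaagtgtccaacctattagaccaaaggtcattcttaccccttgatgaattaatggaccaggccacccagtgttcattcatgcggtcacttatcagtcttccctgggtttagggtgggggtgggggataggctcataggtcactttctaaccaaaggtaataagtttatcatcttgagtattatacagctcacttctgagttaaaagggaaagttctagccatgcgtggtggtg
Akr7a3, chr5:156876471-156876720, plus strand: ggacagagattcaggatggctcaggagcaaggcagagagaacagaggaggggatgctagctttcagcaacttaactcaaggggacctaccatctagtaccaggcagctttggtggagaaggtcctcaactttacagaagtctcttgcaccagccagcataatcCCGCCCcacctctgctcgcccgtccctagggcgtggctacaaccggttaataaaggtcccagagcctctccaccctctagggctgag
Akr7a2, chr5:156835339-156835588, plus strand: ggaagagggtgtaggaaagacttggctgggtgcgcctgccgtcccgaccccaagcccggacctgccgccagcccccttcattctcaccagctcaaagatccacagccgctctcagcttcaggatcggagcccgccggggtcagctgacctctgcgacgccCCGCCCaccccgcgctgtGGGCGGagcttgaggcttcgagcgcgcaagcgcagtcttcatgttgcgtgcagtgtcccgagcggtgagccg

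A GC box was found in the windows of Akr1b8, Akr7a2 and Akr7a3, against 30.5% of all 33469 promoters of that length. Akr7a2 held 2 boxes and the Akr1b10 window none. The core of the antioxidant response element, the sequence bound by NRF2 (TGACNNNGC, both strands), was found in 0 of the 7 windows and in 10.1% of all promoters. The AP-1 motif (TGANTCA, both strands) was also in 0 of 7, against 6.34% of all, and the TATA box (TATAAA, both strands) in 0 of 7, against 12.9%. The motifs do not overlap in these windows. GC content was 50.8% for Akr1b8, 46.8% for Akr1b10, 55.6% for Akr7a3 and 67.6% for Akr7a2, with a median of 51.2% over all promoters. These are letters in a window of 250 bases and say nothing of sites outside it.

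Akr1b8 had by far the largest difference of the 9 genes. It encodes a reductase of retinal and lipid aldehydes that is the rodent relative of human AKR1B10. Its scaled log2 signal was 4.33, 4.36, 4.50, 4.64 and 3.87 in DEN/TAA replicates 1 to 5, and -4.31, -7.13, -7.98, -6.77 and -5.76 in control replicates 1 to 5. All DEN/TAA livers were high and lay within 0.77 of each other, all controls were low, and a gap of 8.17 separated the groups. Before scaling, the processed signal intensity was 132178, 82518, 85695, 115070 and 90535 in the DEN/TAA rats. It was 89.4, 16.9, 9.16, 21.3 and 14.1 in the controls, and none of these control signals was well above background. The measured difference was 10.73 (SE 0.55). With this scaling, Akr1b8 was at least 620-fold higher against the detection floor of the control arrays. For this bound each control array was given the dimmest signal that any detected probe had on it, or the signal of Akr1b8 where that was brighter. Control replicate 1 carried the highest control signal, and without it the difference was 11.25. With normexp the difference was 7.97, and in the authors' table, whose values follow the raw median signal, it was 7.44. Both lie below the bound given above, which is 9.28 in log2, so that bound holds for the main scaling only.

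**Figure D1:**
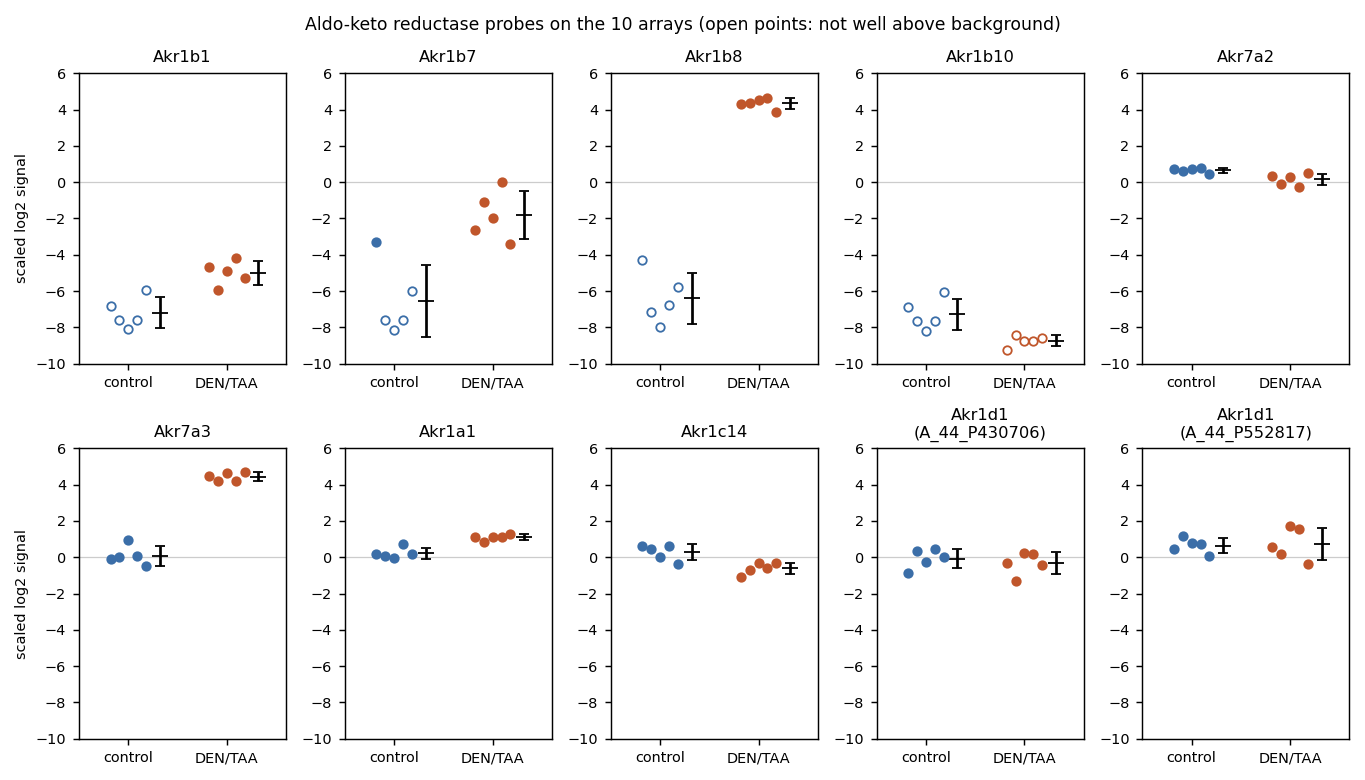
Scaled log2 signal (0 is the array's 75th percentile) of the 10 probes in 5 control and 5 DEN/TAA rats, 1 point per array, with open points where the probe was not well above background and bars for the mean ± SD. Akr1b8 lies between 3.87 and 4.64 in DEN/TAA and at or below -4.31 in control, and Akr1b10 has open points on all 10 arrays.

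Akr1b10, the next Akr gene after Akr1b8 in chromosomal order, was not well above background on any of the 10 arrays. Its scaled values were -6.89, -7.62, -8.22, -7.67 and -6.03 in control and -9.23, -8.41, -8.74, -8.75 and -8.59 in DEN/TAA. The difference of -1.46 is close in size to the 1.48 by which scaling differed between the groups, and the processed signals overlapped, at 7.76 to 14.9 in control and 8.89 to 16.1 in DEN/TAA. No fold is given, since both groups were below background. The same 5 DEN/TAA livers had bright Akr1b8 signal.

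Akr1b7, a reductase first described in the vas deferens that also handles aldehydes from steroid synthesis, was higher in DEN/TAA but varied widely. Its scaled signal was -2.62, -1.08, -1.96, 0.03 and -3.43 in DEN/TAA replicates 1 to 5, well above background on all of them. Control replicate 1 was at -3.31 and well above background, while the other control rats, at -7.60, -8.16, -7.60 and -5.97, were not. The groups overlapped, since control replicate 1 lay above DEN/TAA replicate 5. The measured difference was 4.72 (SE 0.90). With the 4 undetected controls raised to the floor it was 2.93, or 7.61-fold, and without control replicate 1 the measured difference was 5.52. With normexp it was 2.06, and with the authors' values 1.81. The DEN/TAA values spanned 3.46, against 0.77 for Akr1b8, and both genes were highest in replicate 4 and lowest in replicate 5. Whether the Akr1b7 probe also binds Akr1b8 transcript was not tested. Akr1b7 is known from the adrenal cortex and the gut. The adrenal markers Cyp11a1, Cyp11b1 and Cyp21a1 were above background on no array. Of the gut markers, Cdx2 was undetected on all arrays, Vil1 did not pass the filter and Sis was not on the array. Fabp2, an intestinal fatty acid carrier, rose by 3.02 (SE 0.22, limma adjusted p = 1.37e-06), and it was above background on 4 of 5 controls. Whether these markers bear on the source of Akr1b7 was not tested.

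Akr1b1 is aldose reductase, which turns glucose into sorbitol. It was detected, dimly, in 5 of 5 DEN/TAA rats and in 0 of 5 controls. The scaled signal was -4.69, -5.94, -4.89, -4.19 and -5.30 in DEN/TAA and -6.80, -7.57, -8.11, -7.59 and -5.93 in control. DEN/TAA replicate 2 and control replicate 5, the dimmest array, were nearly equal. The measured difference was 2.20 (SE 0.42), but the mean of the DEN/TAA arrays, -5.00, did not exceed the floor of the control arrays, also -5.00, so no fold can be given. With normexp the difference was 0.086, and it was 0.50 with the authors' values.

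Akr7a3 and Akr7a2 encode the aflatoxin aldehyde reductases, of which Akr7a3 is known as the form induced by antioxidants and Akr7a2 as the form present throughout the body, which also reduces succinic semialdehyde. Akr7a3 was at 4.46, 4.22, 4.64, 4.20 and 4.68 in DEN/TAA and at -0.11, 0.02, 0.96, 0.04 and -0.51 in control rats. It was well above background on every array, and a gap of 3.24 separated the groups. The difference was 4.36 (SE 0.25), or 20.6-fold, and ranged from 4.06 to 5.02 over the 6 scalings. Since it was detected in both groups, this fold rests on measured signal on both sides, unlike that of Akr1b8.

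Akr7a2 was at 0.31, -0.12, 0.27, -0.25 and 0.52 in DEN/TAA and at 0.70, 0.59, 0.73, 0.78 and 0.47 in control. The groups overlapped, DEN/TAA replicate 5 lying above control replicate 5. The difference was -0.51 (SE 0.17), and it turned to 0.15 with spike-in scaling. Relative to the median of all genes it was lower in each of the 6 scalings, by -0.83 to -0.25. Akr7a3 and Akr7a2, printed above with their promoters, thus differed in size and, except with spike-in scaling, in sign.

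Akr1a1 is aldehyde reductase, which in rodents supplies gulonate for vitamin C synthesis. It was at 1.09, 0.85, 1.13, 1.14 and 1.30 in DEN/TAA and at 0.19, 0.05, -0.04, 0.74 and 0.15 in control. All DEN/TAA rats lay above all controls, by a gap of 0.11. The difference was 0.88 (SE 0.17), or 1.84-fold, and it kept its sign over the scalings (0.58 to 1.54) and relative to the median of all genes (0.56 to 1.13).

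Akr1c14 is the hepatic 3-alpha-hydroxysteroid dehydrogenase, which acts on steroids and bile acid intermediates. It was at -1.08, -0.70, -0.33, -0.59 and -0.32 in DEN/TAA and at 0.61, 0.46, 0.03, 0.64 and -0.39 in control. Control replicate 5 lay among the DEN/TAA values, and the other 4 controls were above them all. The difference was -0.88 (SE 0.23), or 1.83-fold lower, and -0.21 with spike-in scaling.

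Akr1d1 is the 5-beta-reductase of bile acid synthesis and the step just before Akr1c14. It had 2 probes, both above background on every array, and they gave differences of opposite sign. Probe A_44_P552817, the brighter, was at 0.59, 0.18, 1.70, 1.58 and -0.35 in DEN/TAA and at 0.43, 1.15, 0.79, 0.73 and 0.09 in control, a difference of 0.10 (SE 0.38). Probe A_44_P430706 was at -0.34, -1.29, 0.25, 0.16 and -0.43 in DEN/TAA and at -0.89, 0.32, -0.26, 0.46 and 0.00 in control, a difference of -0.26 (SE 0.36, from the group SDs). For both probes the groups overlapped widely and the difference was smaller than the SD between rats. The sign for the gene also changed with the percentile over all probes, with the mean over probes, with slide as a block and on leaving out control rat 5 (-0.035) or DEN/TAA rat 3 (-0.14) or 4 (-0.11). The spread was largest in DEN/TAA (SD 0.89 for the brighter probe, against 0.40 in control).

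Of the 8 genes that passed the filter, 5 were called higher, 2 lower and 1, Akr1d1, in neither direction by the fit that gave 55.3% over all genes, and 3 of 8 had groups that did not overlap, against 39.4% of all genes. Akr1b1 and Akr1b8, above background in 0 of 5 controls, passed the filter through DEN/TAA rats alone. The difference of Akr1b1 was -0.0023 with undetected arrays raised to the floor. The genes were picked with this contrast known, so these counts are not evidence about the family.

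Differences between slides were not used to choose the genes. The group differences within slides, given below, split the same contrast by which the genes were chosen. They are a description and carry no test. The arrays lay on 3 slides, each holding rats of both groups. With group in the model, the slide term was called for 2.25% of all genes tested and for 0 of the 8 genes here (limma moderated F-test, adjusted p from 0.166 for Akr1d1 to 0.998 for Akr1c14). For Akr1d1 both DEN/TAA rats on slide 2, replicates 3 and 4, were the highest of the group. Within slides 1, 2 and 3 the DEN/TAA minus control difference of Akr1b8 was 10.06, 12.55 and 10.13, that of Akr7a3 4.39, 3.46 and 4.92, and that of Akr1b7 3.61, 7.19 and 3.35. Akr1b1 gave 1.87, 3.57 and 1.46, and Akr1a1 0.85, 1.17 and 0.85. Akr1c14 was lower on every slide (-1.43, -0.49 and -0.44), as was Akr7a2 (-0.55, -0.72 and -0.099), while Akr1d1 by its brighter probe was lower on slides 1 and 3 (-0.41 and -0.76) and higher on slide 2 (0.85). Slide 2 held a single control, replicate 3, whose undetected probes read lowest of the controls, and Akr1b1, Akr1b7 and Akr1b8 had their largest differences there.

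**Figure D2:**
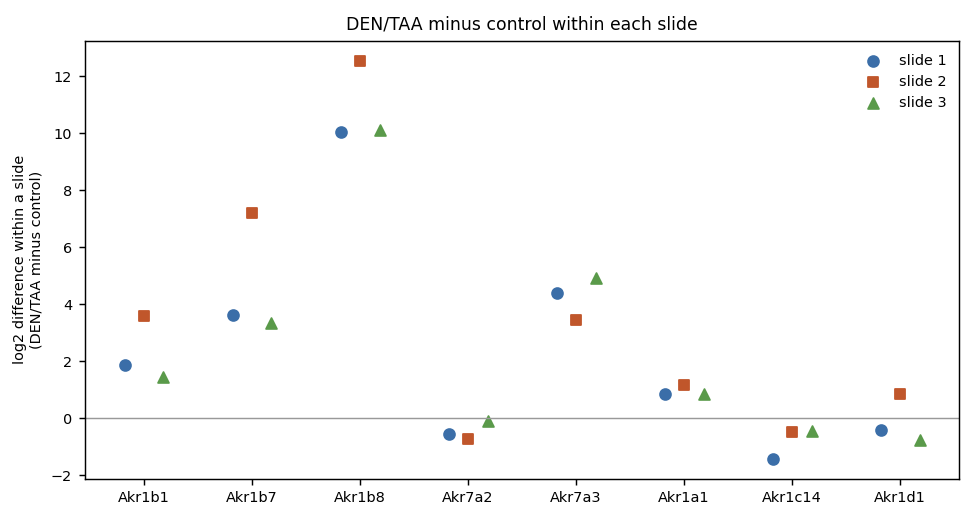
DEN/TAA minus control difference in scaled log2 signal within each of the 3 slides, for the 8 genes that passed the filter (each by its brightest probe, 1 marker per slide, each the difference of means over 1 or 2 rats a group). Akr1b8 lies between 10.06 and 12.55 on all slides, and Akr1d1 is on both sides of 0. The genes were chosen by this contrast over the same arrays.

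The other aldo-keto reductases on the array went both ways. Of 13 others, the 3 Kcnab genes, potassium channel subunits with an aldo-keto reductase fold, were above background on no array. Of the 10 tested, 3 rose (3 in each of 6 scalings) and 7 fell (4 to 7), against 39.0% and 16.3% of all genes, with a median of -1.15 against 0.32 for all genes. The cluster of Akr1 genes on chromosome 17, which holds Akr1c14, contained both directions. Members of this cluster are related in sequence, and how far their probes share signal was not tested.

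Akr1c15 was at -1.09, -1.75, -0.98, -0.64 and -1.99 in DEN/TAA and between -4.53 and -3.82 in control, with 4 of 5 controls well above background. It rose by 2.87 (SE 0.26, limma adjusted p = 4.96e-06). Akr1c13 rose by 1.90 (SE 0.23, adjusted p = 3.84e-05), with every control at -0.74 or below and DEN/TAA between 0.39 and 0.95, with all arrays above background. Akr1c19 rose by 2.65 (SE 0.39, adjusted p = 0.000151), with 4 of 5 controls above background. In all 3 genes every DEN/TAA rat lay above every control. Groups that do not overlap, in either direction, were common, at 39.4% of all genes tested.

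Of the genes that fell, AKR1C3l1 was at -3.94, -3.58, -4.30, -4.77 and -3.40 in DEN/TAA and at -1.90, -0.26, -1.01, -1.55 and -1.08 in control, a difference of -2.84 (SE 0.33, adjusted p = 3.16e-05). Akr1c2 differed by -3.64 (SE 0.69, adjusted p = 0.000997), with only 3 of 5 DEN/TAA arrays above background. Akr1c1 differed by -2.72 (SE 0.52, adjusted p = 0.00102), from -0.69 to 1.45 in control to -3.73 to -0.99 in DEN/TAA. In these 3 genes every DEN/TAA rat lay below every control, where 39.4% of all genes tested had no overlap in either direction. Akr1e2, a reductase of anhydrofructose, differed by -1.07, Akr1c12 by -1.23, Akr1c12l1 by -0.81 and Akr1c3 by -2.15. The groups overlapped for Akr1c12, Akr1c12l1 and Akr1c3. Akr1c3 was above background on only 3 of 5 controls and 2 of 5 DEN/TAA arrays, and with the authors' values it differed by -0.40. Akr1c3 lost its call with quantile normalisation, and Akr1e2, Akr1c12 and Akr1c12l1 lost theirs with spike-in scaling, all with the sign kept. No slide term was called for any of the 10.

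**Figure D3:**
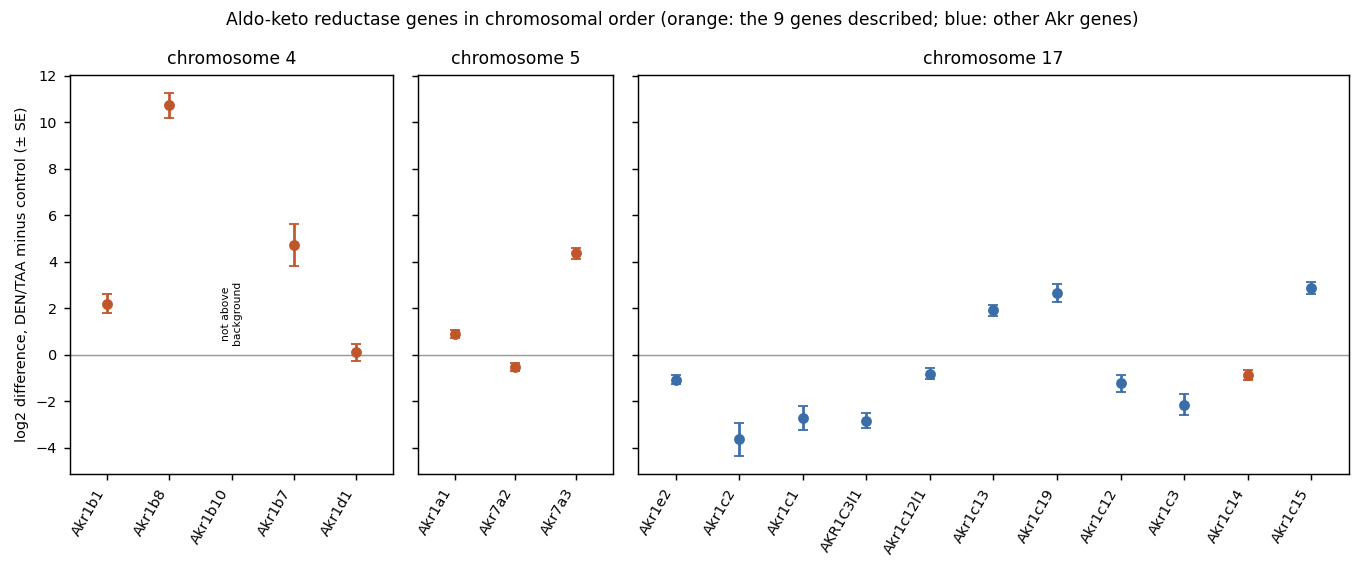
Log2 difference between DEN/TAA and control (± SE) of the Akr genes in their order along chromosomes 4, 5 and 17 (RefSeq order, not to scale; other genes may lie between). Akr1b10 has no point, being below background on all arrays, and on chromosome 17 the 3 genes that rose, Akr1c13, Akr1c19 and Akr1c15, lie among genes that fell.

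In the list around sorbitol and fructose, which holds enzymes and the sugar transporters Slc2a5 and Slc2a2, all 5 genes measured were called lower with the main scaling, against 16.3% of all genes. Their median was -1.10, and 2 to 5 were called lower over the scalings, the fewest with spike-in scaling. Khk, ketohexokinase, differed by -2.08 (SE 0.17, adjusted p = 2.49e-06) and Tkfc, triokinase, by -2.02 (SE 0.18, adjusted p = 3.98e-06). Sord, sorbitol dehydrogenase, which takes the sorbitol made by Akr1b1, differed by -0.59 (SE 0.18, adjusted p = 0.0151) but by 0.074 with spike-in scaling.

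Around Akr1a1, genes of glucuronate and vitamin C synthesis went both ways, with 3 of 7 called higher (2 to 4) and 3 lower (3 in each scaling), against 39.0% and 16.3% of all genes. The share called higher was near that of all genes, and the median was 0.17. Ugdh, which makes UDP-glucuronate, rose by 2.33 (SE 0.18, adjusted p = 1.70e-06) and Cryl1, which oxidises gulonate, by 2.31 (SE 0.31, adjusted p = 9.24e-05). Gulo, the last enzyme of vitamin C synthesis, fell by 2.96 (SE 0.33, adjusted p = 2.31e-05), from a mean of 1.23 in control to -1.72 in DEN/TAA, and Dcxr, a xylulose reductase, fell by 2.53 (SE 0.22, adjusted p = 3.40e-06).

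Around Akr1d1 and Akr1c14, 8 of 9 bile acid and steroid genes were called lower (5 to 9) and 0 higher, against 16.3% and 39.0% of all genes, with a median of -2.17. Cyp8b1, the 12-alpha-hydroxylase, fell by 3.06 (SE 0.34, adjusted p = 2.13e-05) and Hsd3b7, the step just before Akr1d1, by 2.17 (SE 0.26, adjusted p = 3.54e-05). Srd5a1, the steroid 5-alpha-reductase, differed by -2.36 (SE 0.46), while Akr1d1, which reduces the same bond to the 5-beta form, had differences of 0.10 and -0.26 by its 2 probes. Whether Akr1d1 differs from these genes was not tested.

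Among other enzymes that clear reactive carbonyls, 3 of the 9 measured were called higher (3 to 5 over the scalings) and 2 lower (1 to 3), against 39.0% and 16.3% of all genes, so both shares were near the background. Their median was -0.040. Ptgr1, which reduces lipid enals, rose by 2.70 (SE 0.23, adjusted p = 3.40e-06). Cbr1, carbonyl reductase 1, was detected in 0 of 5 controls and passed the filter through DEN/TAA rats alone. Its rise of 3.12 (SE 0.36, adjusted p = 3.16e-05) was thus taken against control signals not well above background. Against the floor of the control arrays Cbr1 was at least 4.63-fold higher with the main scaling. Its difference ranged from 0.91 to 3.79 over the 6 scalings. Hagh, the second glyoxalase, fell by 1.72 (SE 0.23, adjusted p = 9.02e-05), and Dhrs4 differed by -0.55 (SE 0.18, adjusted p = 0.0221), or 0.11 with spike-in scaling. Of 6 genes of retinal handling, with 1 called in each direction against 39.0% and 16.3% of all genes, Aldh1a1, which oxidises retinal, rose by 2.67 (SE 0.32, adjusted p = 3.72e-05), Dhrs3, which reduces it, fell by 1.02 (SE 0.20, adjusted p = 0.00114), and the other 4 were not called (1 to 3 higher and 0 to 3 lower over the scalings; median -0.22).

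Of NRF2 and its partners, 3 of 6 were called higher (0 to 5) and 0 lower (0 to 1), with a median of 0.65, against 39.0% of all genes called higher. Mafg, a small MAF partner, rose by 0.96 (SE 0.22, adjusted p = 0.00338), and Bach1, a repressor of the same sites, by 1.75 (SE 0.44, adjusted p = 0.00571). Bach1 was above background on 1 of 5 controls and its call ended with normexp (0.011), as did that of Mafg (0.51). The third called gene, Mafk, was above background on 0 of 5 controls and passed the filter through DEN/TAA rats alone. Its difference of 0.83 (SE 0.23) became -0.33 with undetected arrays raised to the floor. Over the scalings the Mafk difference ranged from -0.85 to 1.49. Nfe2l2, the gene of NRF2 itself, differed by 0.48 (SE 0.36, adjusted p = 0.286), and Keap1, its inhibitor, by -0.0041 (SE 0.22, adjusted p = 0.988).

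**Figure D4:**
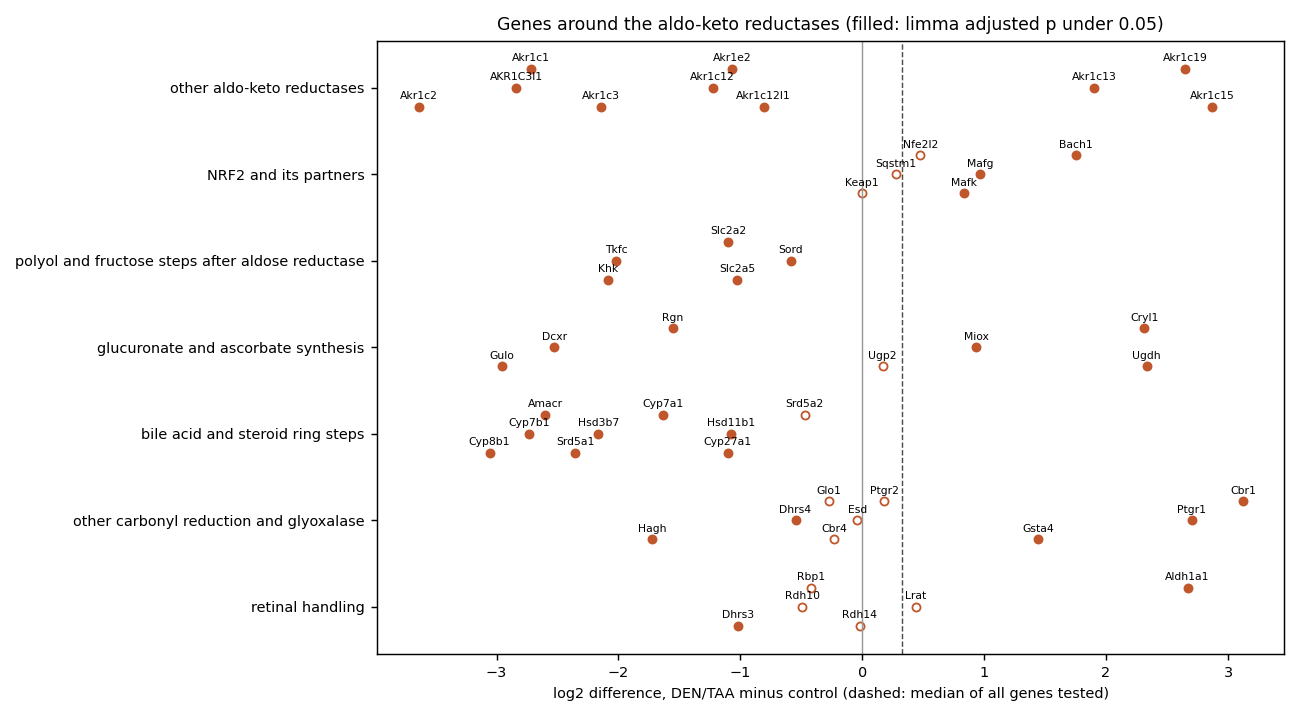
Log2 difference between DEN/TAA and control of each measured gene in 7 lists around the aldo-keto reductases, 1 point per gene, filled where limma's adjusted p was under 0.05, with a dashed line at the median of all genes (0.32). The fructose and bile acid lists lie to the left, and other aldo-keto reductases lie on both sides, from -3.64 to 2.87.

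The genes whose pattern over the 10 arrays lay nearest to each of these were found by the root mean square difference of log2 values after each gene's own mean was subtracted, among all 6849 genes. For Akr1b8 the nearest were Bex1 (1.65), Aldh3a1 (2.13) and Pcp4 (2.16). The measured difference of Bex1 was 7.92, and Bex1, like Akr1b8, was above background in 0 of 5 controls. For Akr7a3 the nearest were Gclc, the catalytic subunit of glutathione synthesis (0.46), Dcn, the matrix protein decorin (0.46), and Mgp, matrix Gla protein (0.48). Gclc and Dcn were above background in only 2 of 5 controls each, and Mgp, like Akr7a3, in all. For Akr1b7 they were Lcn2, a lipocalin (0.93), Kif12 (1.07) and Tff3, a trefoil peptide of mucous epithelia (1.09). Lcn2 was above background in 2 of 5 controls, and Kif12 and Tff3 in 0. For Akr1b1 they were Gstm5 (0.25), Tes (0.26) and Abo (0.35), all above background on 0 control arrays, as Akr1b1 was. Akr7a2 lay nearest to Thnsl2 (0.11), Slc25a11 (0.12) and Sord (0.12), and Akr1a1 to Pigx (0.13), Hmgn1 (0.13) and Cdk8 (0.13). Akr1c14 lay nearest to Hibadh (0.17), Inpp5b (0.17) and Ei24 (0.18), and Akr1d1 to Pnrc1 (0.33), Sec61a2 (0.34) and Eif4ebp2 (0.35). The measure takes in the difference between the groups as well as the spread within them.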

How the data were processed

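RNA from 10 livers was hybridised in 1 colour to Agilent 4x44K rat arrays, 150 ng per array per the labels. The deposited scanner files hold spot intensity, background-subtracted within the array. The file headers name Feature Extraction 11.5.1.1 from Agilent (the submitters' processing notes name 15.5). A second deposited table holds log2 values in the rank order of the raw median spot signal, with column medians of 8.592 to 8.594. How it was made is stated nowhere in the labels.

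Control spots and outlier-flagged spots were left out, log2 signals averaged per probe, and each array's 75th percentile over the 6232 probes well above background on all 10 arrays was subtracted. A probe counted as well above background where at least 50% of its spots were. Probes were named by RefSeq accession (17502 of 41012 matched), and a gene was represented by its brightest passing probe. Groups were compared by limma (version 3.58.1, R 4.3.3), two-sided, with Benjamini-Hochberg adjustment over all 6849 genes, after a check on simulated data. The labels treat each array as 1 animal. A p-value sets the difference between groups against the spread between these rats, which limma moderates over all genes tested. The 9 genes and the gene lists were chosen with earlier results of these data known. Named genes were the 9 genes with every probe, up to 2 called members in each direction per pathway list, and the 3 nearest genes; other named list members were chosen after their values were seen. Adrenal, gut and pancreas marker lists were also read, and of the pancreas list 0 genes passed the filter. Of 6 endothelial markers 3 were tested and 2 rose (0 to 3 over the scalings). Alternatives were normexp (offset 50), quantile normalisation, the percentile over all probes, the authors' log2 table, other filters, the mean over probes, slide and replicate blocks, and each rat left out. Spike-in scaling (5 brightest probes) and raising undetected arrays to the floor were added after the data were seen.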

Additional observations from a re-analysis of the deposited data

How the results depend on the processing

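Of 165 values of the 8 genes under alternative settings, 150 stayed within 1 SD between rats, 13 moved further, and 2 turned the sign of a called difference: Akr7a2 was 0.15 with spike-in scaling, and Akr1b1 was -0.0023 with undetected arrays raised to the floor. Akr1d1, which was not called, also changed sign in 6 settings while staying within that SD. The causes were not tested. Part of the 150 could not have moved, so that count overstates how stable the values are. The other filters and the replicate block left each difference as it was. So did the mean over probes for a gene with 1 probe, and the floor for a gene detected on all 10 arrays. Akr1b8 ranged from 7.44 to 11.39 over the scalings and from 10.33 to 11.25 with each rat left out. The number of genes called higher was 2669 of 6849, and 879 with normexp, 1613 with the percentile over all probes, 1152 with the filter on all 10 arrays and 4438 with spike-in scaling. The number called lower was 1119, and 1959 with normexp, 5804 with no filter and 396 with spike-in scaling. The fit with no filter tested 13825 genes and that with the filter on all 10 arrays 3568, so their counts are not over the same genes. With each rat left out the counts ran from 2324 to 2674 higher and from 989 to 1147 lower. The slide term was called for 154 genes, and for 23 with quantile normalisation. With the replicate block 2663 genes were higher and 1121 lower. The labels do not say that numbers pair rats, and same-numbered rats' deviations correlated from -0.22 to 0.20, so the numbers were taken as names only. Signal over background limits Akr1b1, Akr1b7, Akr1b8 and Akr1b10, whose control signals were largely undetected.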
